A study of Danio rerio with 8 samples.

Results

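The parathyroid hormone and stanniocalcin genes encode hormones that act against each other in fish calcium balance, and their receptors. The 9 genes described here, pth1a, pth1b, pthlha, pthlhb, pth1r, pth2r, stc1l, stc1 and stc2a, were chosen by gene name, with earlier results of these data known. The mean level over libraries was to decide between several rows of 1 symbol, but no member had more than 1 row. Of the 9 genes, 7 had a row of that name among the 14581 transcript rows used, and pth1r and pthlhb had none. Only 3 of them, pth1b, stc1l and stc2a, reached a mean of 1 RPKM (a read number divided by the transcript's length and the library's mapped reads), the level set for entering the fit of 10889 transcripts.

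Polyadenylated RNA was sequenced from pieces of zebrafish trunk at 38 to 40 hours after fertilisation, with heads and yolks removed. In MUT embryos both copies of foxc1a, the gene of a forkhead transcription factor, were the p162 allele. SIB embryos, their siblings, carried p162 on 1 chromosome per the labels, although the design text calls the controls wild type. Anterior pieces (AS) held segments 1 to 6, the territory of the nerves to the pectoral fin, and posterior pieces (PS) held segments 7 to about 12. The 4 groups, MUT_AS, SIB_AS, MUT_PS and SIB_PS, held 2 libraries each, named replicates 1 and 3 after their titles. The labels do not say whether the 2 came from separate clutches or how many embryos each pooled, so p-values measure only the spread between these libraries. The design asks how the 2 genotypes differ in each region.

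In vertebrates, parathyroid hormone raises blood calcium through G protein-coupled receptors that act by cyclic AMP and by Gq. Fish have no parathyroid gland, and in zebrafish embryos pth1a and pth1b are known from the lateral line and the ventral neural tube. Stanniocalcin, first known from fish, lowers calcium uptake by the gills and skin. It is made in the corpuscles of Stannius, small glands that arise from the distal part of the pronephros, the embryonic kidney.

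Depth was uneven. The table held no counts, so the reads behind a value were inferred from the steps in which values rise. Each count of steps gives the reads only up to a whole factor. By that measure MUT_AS replicate 3 held 1.1% of the reads of the deepest library, SIB_PS replicate 3, and MUT_AS replicate 1 held 88.7%. The other 5 libraries held 32.8% or less. In MUT_AS replicate 3, 17.5% of transcript rows stood at 0, against 4.6% to 8.0% in the other 7 libraries, so the members' main results are also given without it. The targeted gene, foxc1a, had 19.3 and 16.3 RPKM in MUT_AS and 18.1 and 16.3 RPKM in SIB_AS, with 9.02 and 7.74 RPKM in MUT_PS and 7.74 and 7.32 RPKM in SIB_PS. Its transcript level therefore does not separate the genotypes and does not check the labels. Of the gene lists used here, the skeletal muscle markers had the highest sum in every library. Their 8 genes summed to 7360 to 7980 RPKM in MUT_AS and 10400 to 13300 RPKM in SIB_AS. In PS they summed to 23200 to 23500 RPKM in MUT_PS and 24400 to 31200 RPKM in SIB_PS. The 5 brain markers summed to 10.6 to 11.7 RPKM in MUT_AS and 13.1 to 20.4 RPKM in SIB_AS, and to at most 2.69 RPKM in any PS library.

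The hormone genes as a group were low. Their means over the 8 libraries ran from 0.0728 RPKM for stc1, above 7.1% of the transcript rows that were not 0 everywhere, to 9.51 RPKM for stc1l, above 65.9% of them. The second highest was stc2a at 6.19 RPKM, followed by pth1b at 2.75 RPKM. The other 3, pthlha, pth1a and pth2r, had means of 0.757, 0.582 and 0.423 RPKM.

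**Figure D1:**
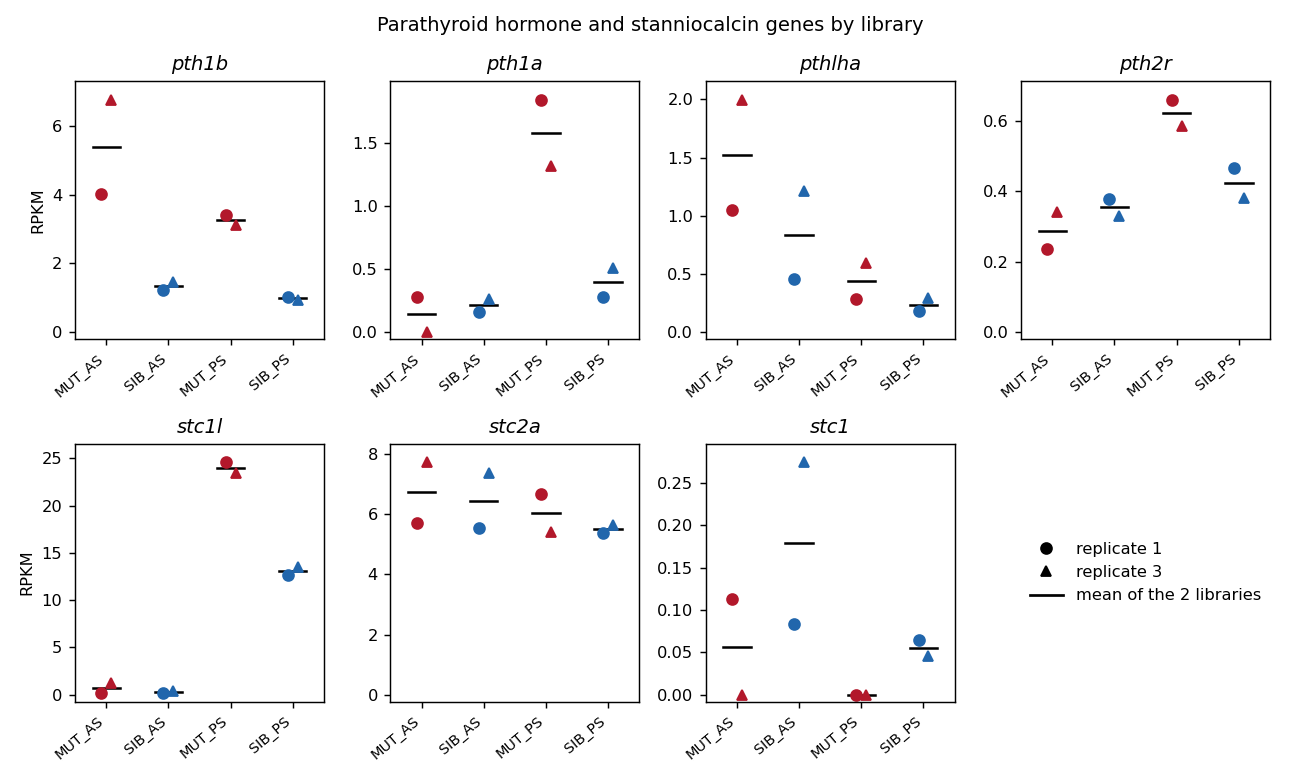
Level in RPKM (vertical axis, linear, from 0, with a separate scale in each panel) of the 7 genes with a row, in each of the 8 libraries. Circles are replicate 1, triangles replicate 3, red MUT, blue SIB, and bars the mean of the 2 libraries. Both MUT groups of pth1b lie above both SIB groups, and stc1l is high only in the 4 PS libraries.

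Of the ligands, pth1b was higher in mutants in both regions. This gene encodes a parathyroid hormone of zebrafish. It had 4.02 and 6.78 RPKM in MUT_AS, against 1.22 and 1.45 RPKM in SIB_AS. In PS it had 3.42 and 3.13 RPKM in MUT_PS, against 1.03 and 0.944 RPKM in SIB_PS. All 4 MUT libraries, from 3.13 to 6.78 RPKM, stood above all 4 SIB libraries, from 0.944 to 1.45 RPKM. That was so for 205 of the 10889 transcripts in the fit, or 1.88%.

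The ratio of mean RPKM was 4.04 in AS, from 5.40 ± 1.95 RPKM in MUT_AS and 1.34 ± 0.168 RPKM in SIB_AS (SD, n = 2 each). It was 3.32 in PS, from 3.27 ± 0.208 RPKM in MUT_PS and 0.987 ± 0.0604 RPKM in SIB_PS (SD, n = 2 each). The scale of every log2 difference below is log2(RPKM + 1), which understates the ratio of low genes. The difference was 1.42 in AS (SE 0.22, 95% interval 0.93 to 1.91) and 1.105 in PS (SE 0.22, 95% interval 0.62 to 1.59). The SE is the same because the groups share 1 spread per transcript in the fit. The SD between replicates, pooled over the fitted transcripts, was 0.363 in MUT_AS and 0.181 to 0.195 in the other groups. With limma and Benjamini-Hochberg adjustment over all 10889 transcripts, neither passed the threshold of 0.05, at adjusted p = 0.0946 in AS and 0.452 in PS. None of the 3 members was called in either region, where 0.0459% of all transcripts (5) were called in AS and 0% in PS. By unadjusted limma p, 1270 transcripts were under the threshold of 0.05 in AS and 291 in PS. Those of pth1b were 6.95e-05 in AS and 0.000498 in PS.

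The reads behind pth1b in MUT_AS were unequal. Replicate 1 held 196 steps and replicate 3 held 4, each step there being worth 1.7 RPKM. The SIB_AS libraries held 22 and 8 steps, the MUT_PS libraries 24 and 29, and the SIB_PS libraries 16 and 52. Without MUT_AS replicate 3 the AS difference was 1.104. Without MUT_AS replicate 1, which leaves the shallow library alone, it was 1.74. In both fits the lone MUT_AS library was assumed to vary like the other groups. The PS difference uses neither library and kept its value, but its adjusted p depended on whether both entered the spread. With a weight for each group the adjusted p was 0.112 in AS and 0.0186 in PS, where 17 of 10889 transcripts were called. With median scaling it was 0.169 in AS and 0.939 in PS, and without the filter it was 0.334 in AS.

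Averaged over the regions, a contrast added after the values were seen, pth1b rose by 1.26 in mutants (SE 0.15, adjusted p = 0.0216, higher in 4 of 4 MUT libraries), one of 9 calls, or 0.0827% of transcripts. This call was lost with no filter on low values (adjusted p = 0.108) and with libraries scaled to 1 median (0.0554). It was also lost on leaving out any 1 library outside MUT_AS. The call held with a pseudocount of 0.1 (adjusted p = 0.0159), a weight for each group (0.00259) and a block for replicate number (0.0334). Leaving out 1 library at a time, the difference ran from 1.1 to 1.42. The interaction of genotype and region was 0.32 (95% interval -0.37 to 1.005, adjusted p = 0.999), so the difference in AS was not shown to differ from that in PS. No transcript was called for the interaction (0% of 10889, with 298 at an unadjusted p under 0.05).

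Between regions the differences of pth1b were smaller in size. AS minus PS was 0.55 in MUT (95% interval 0.06 to 1.03, adjusted p = 0.0553) and 0.23 in SIB (95% interval -0.25 to 0.72, adjusted p = 0.391). The MUT value turns on which MUT_AS library is used, at 0.23 (adjusted p = 0.286) without replicate 3 and 0.86 (adjusted p = 0.00171) without replicate 1. The order of the 4 group means was MUT_AS, MUT_PS, SIB_AS and SIB_PS, and with all libraries neither genotype's regions differed beyond the test's threshold. The neighbours MUT_PS and SIB_AS differ in both genotype and region and were not compared. With median scaling the AS minus PS difference in SIB turned to -0.19.

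**Figure D2:**
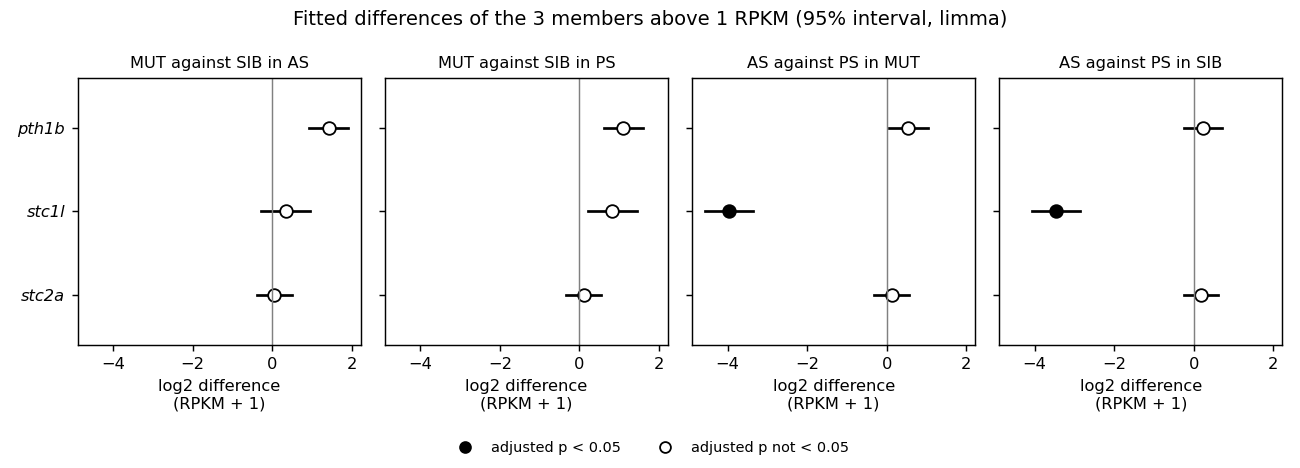
Differences on log2(RPKM + 1) (horizontal axis) for the 3 members in the fit, in 4 comparisons. Points are limma estimates, lines 95% intervals, and filled points have an adjusted p under 0.05. The intervals of pth1b lie above 0 in both comparisons of MUT against SIB, and those of stc1l lie near -4 and -3.5 for AS against PS.

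The paralog pth1a, a second parathyroid hormone gene, was low throughout and highest in MUT_PS. It had 1.85 and 1.32 RPKM in MUT_PS, against 0.278 and 0.510 RPKM in SIB_PS. In AS it had 0.280 RPKM and a listed 0 in MUT_AS, against 0.159 and 0.262 RPKM in SIB_AS. The AS groups overlapped. Both MUT_PS libraries stood above both SIB_PS libraries, as did those of 22.3% of the 14230 transcripts that were not 0 everywhere.

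In steps, pth1a held 18 and 17 in MUT_PS and 6 and 39 in SIB_PS, so the higher value in mutants rested on moderate numbers of steps. In MUT_AS it held 19 steps in replicate 1 and 0 in replicate 3. There 1 step would be worth 1.22 RPKM, so a level like that of SIB_AS lay below 1 step. The ratio of mean RPKM in PS was 4.02, from 1.58 ± 0.373 RPKM in MUT_PS and 0.394 ± 0.164 RPKM in SIB_PS (SD, n = 2 each).

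Below the filter, pth1a and the other 3 low members were tested in a limma fit of the 14230 transcripts that were not 0 everywhere. There the PS difference of pth1a between genotypes was 0.89 (95% interval 0.50 to 1.27, unadjusted p = 0.000852, adjusted p = 1), and its interaction was -0.98 (unadjusted p = 0.00349, adjusted p = 0.999). That fit called 0.0211% of transcripts for genotype in AS, 0% in PS and 0% for the interaction, and no member among the 7. Between regions pth1a fell in AS of mutants by 1.18 (SE 0.17, adjusted p = 0.00173), where 42.3% of transcripts were called. In SIB the difference was -0.20 (adjusted p = 0.393), where 37.0% were called. The regional difference in mutants was -1.01 without MUT_AS replicate 3, and the interaction was then -0.81. Without replicate 1, which leaves the library where pth1a is listed at 0, the interaction was -1.16.

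The third ligand, pthlha, encodes a parathyroid hormone-like hormone, a local signal known in mammals for its part in cartilage growth. It had 1.05 and 2.00 RPKM in MUT_AS, against 0.457 and 1.21 RPKM in SIB_AS. In PS it had 0.280 and 0.593 RPKM in MUT_PS, against 0.177 and 0.293 RPKM in SIB_PS. The genotypes overlapped in both regions, while the AS libraries of each genotype stood above its PS libraries. The same held for 47.8% of the 14230 transcripts in MUT and 55.7% in SIB.

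Without the filter, the difference of pthlha between AS and PS was 0.79 in MUT (adjusted p = 0.0384) and 0.54 in SIB (adjusted p = 0.134). It was 0.52 in MUT without MUT_AS replicate 3 and no longer passed (adjusted p = 0.101), and the unchanged value in SIB passed (adjusted p = 0.0448). Without MUT_AS replicate 1 it was 1.07 in MUT (adjusted p = 0.00682). The ratio of mean RPKM was 3.49 of MUT_AS to MUT_PS and 3.56 of SIB_AS to SIB_PS. With a pseudocount of 0.1 the differences were 1.595 (adjusted p = 0.0494) and 1.38 (adjusted p = 0.0879). Its steps ran from 130 in MUT_AS replicate 1 to 3 in MUT_AS replicate 3, with 5 to 41 in the other libraries.

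Another ligand gene of the family outside the 9, pth2, known in mammals as the brain peptide TIP39 that binds the type 2 receptor, had 0.0764 and 0.702 RPKM in MUT_AS, 0 and 0.226 RPKM in SIB_AS, and at most 0.0602 RPKM in PS. The higher MUT_AS value came from 1 step in the shallow library.

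The receptor gene pth2r, whose row RefSeq now names pth2ra, had 0.235 and 0.342 RPKM in MUT_AS, against 0.379 and 0.330 RPKM in SIB_AS. It had 0.661 and 0.587 RPKM in MUT_PS, against 0.467 and 0.381 RPKM in SIB_PS. The AS groups overlapped, and both MUT_PS libraries stood above both SIB_PS libraries, again beside 22.3% of transcripts.

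No difference of pth2r between genotypes passed the test, with 0.19 in PS (95% interval -0.03 to 0.41, adjusted p = 1) and -0.07 in AS (95% interval -0.30 to 0.15, adjusted p = 0.804). In mutants pth2r fell in AS by 0.33 against PS (adjusted p = 0.0254), a call that was lost with a pseudocount of 0.1 (adjusted p = 0.085) and without MUT_AS replicate 1 (-0.28, adjusted p = 0.051). It was -0.39 (adjusted p = 0.0105) without MUT_AS replicate 3. In SIB the AS minus PS difference was -0.07 (adjusted p = 0.611).

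No row is named pth1r, but the row named pth1ra carries a transcript that RefSeq now gives to pth1r, the shared receptor of parathyroid hormone and its relative. It stood at 0.221 and 0 RPKM in MUT_AS, 0.153 and 0.335 RPKM in SIB_AS, 0.262 and 0.149 RPKM in MUT_PS and 0.281 and 0.288 RPKM in SIB_PS. The row named pth1rb, now pth3r, a related receptor, was the highest receptor of the family at 2.29 and 3.46 RPKM in MUT_AS, 1.84 and 2.68 RPKM in SIB_AS, 1.68 and 3.74 RPKM in MUT_PS and 1.87 and 2.09 RPKM in SIB_PS. Its genotype differences were 0.24 in AS (adjusted p = 0.759) and 0.26 in PS (adjusted p = 1), and the groups overlapped in both regions. The AS difference was 0.024 without MUT_AS replicate 3.

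Of the stanniocalcins, stc1l was a gene of the posterior pieces. It encodes the stanniocalcin that zebrafish make in the corpuscles of Stannius. It had 0.137 and 1.26 RPKM in MUT_AS, against 24.6 and 23.4 RPKM in MUT_PS. In siblings it had 0.206 and 0.338 RPKM in SIB_AS, against 12.7 and 13.5 RPKM in SIB_PS. In each genotype both AS libraries stood below both PS libraries, as they did for 17.5% of the 10889 transcripts in MUT and 20.0% in SIB.

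The AS minus PS difference was -3.96 in MUT (SE 0.27, adjusted p = 4.25e-05) and -3.47 in SIB (SE 0.27, adjusted p = 9.1e-05). It was the only one of the 3 members called between regions, where 55.0% of all transcripts were called in MUT and 51.2% in SIB. As stc1l reached the filter through its PS libraries alone, a regional difference was built into its entry, and its call without the filter had adjusted p = 0.000771 in MUT and 0.00125 in SIB. The ratio of mean RPKM was 34.4 for MUT_PS over MUT_AS and 48.1 for SIB_PS over SIB_AS. The AS values rested on 18 and 2 steps in MUT_AS and 10 and 5 in SIB_AS, against 464 and 584 steps in MUT_PS and 529 and 1994 in SIB_PS.

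Calls between regions leaned to AS, with 4796 transcripts higher and 1189 lower in MUT and 4531 higher and 1047 lower in SIB, and a median over all transcripts of 0.41 and 0.40. With libraries scaled to 1 median the split was 2292 higher and 2540 lower in MUT and 1984 higher and 2347 lower in SIB. The differences of stc1l were then -4.39 in MUT and -3.89 in SIB (adjusted p = 6e-05 and 0.000191).

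Between genotypes in PS, both MUT_PS libraries of stc1l (24.6 and 23.4 RPKM) stood above both SIB_PS libraries (12.7 and 13.5 RPKM), with a ratio of mean RPKM of 1.84. In 23.8% of the 10889 transcripts both MUT_PS libraries stood above both SIB_PS libraries. The difference was 0.83 (95% interval 0.22 to 1.44, unadjusted p = 0.0125), which did not pass after adjustment (adjusted p = 1). This difference uses neither MUT_AS library, but its adjusted p depended on whether both entered the spread. In AS the difference was 0.34 (95% interval -0.27 to 0.94, adjusted p = 0.651), and it turned to -0.16 without MUT_AS replicate 3, where 1 step was worth 0.63 RPKM. The interaction was -0.49 (95% interval -1.35 to 0.37, adjusted p = 0.999).

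Transport genes of the distal pronephros were likewise near 0 in AS and high in PS. The sodium chloride cotransporter gene slc12a3 had 0.0236 and 0.435 RPKM in MUT_AS and 15.6 and 11.6 RPKM in MUT_PS, with 0.0212 and 0.0466 RPKM in SIB_AS and 11.9 and 7.16 RPKM in SIB_PS. It fell in AS by 3.57 in MUT (adjusted p = 4.25e-05) and by 3.31 in SIB (adjusted p = 9.1e-05). The chloride channel gene clcnk fell by 2.296 and 2.14 (adjusted p = 7.85e-05 in MUT and 0.000168 in SIB), and the potassium channel gene kcnj1a.1 fell by 2.26 and 1.96 (adjusted p = 7.8e-05 in MUT and 0.000181 in SIB). These 3 genes too reached the filter through their PS libraries alone, and without it each had adjusted p = 0.000771 in MUT and 0.00125 in SIB. In bulk tissue, fewer cells of a type and less RNA per cell cannot be told apart.

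**Figure D3:**
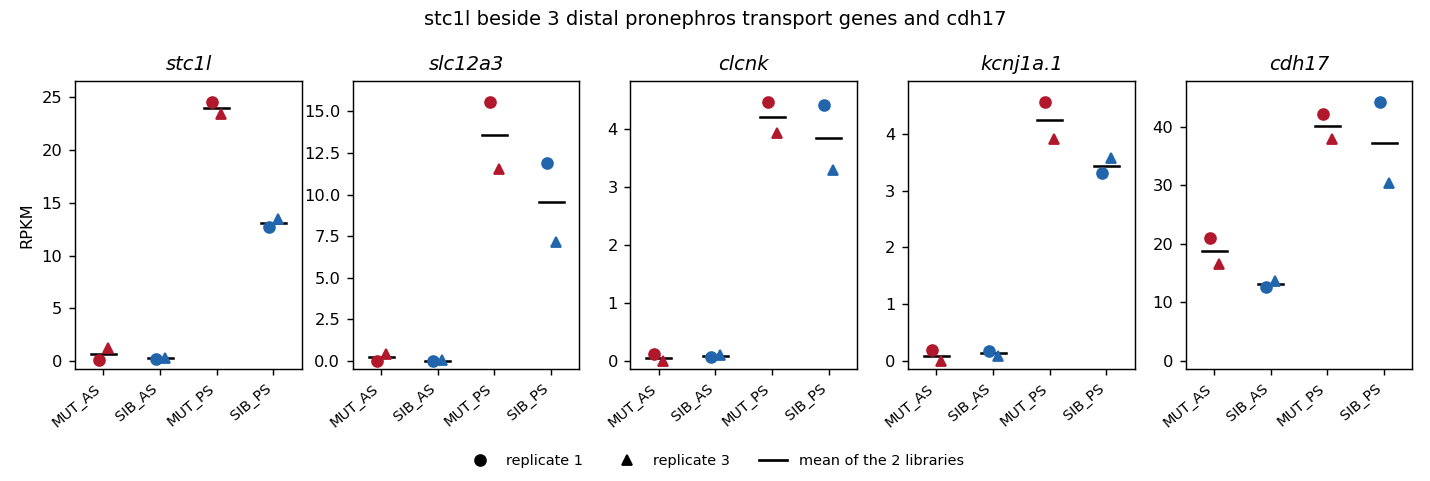
Level in RPKM (vertical axis, linear, with a separate scale in each panel) of stc1l, of 3 transport genes of the distal pronephros (slc12a3, clcnk, kcnj1a.1) and of cdh17, a cadherin gene of the whole pronephros, in each library. Symbols and colours are those of the plot of the 7 genes. For slc12a3, clcnk and kcnj1a.1 the AS libraries lie near 0, while cdh17 is at 12.6 to 21.0 RPKM there, and in PS the 2 genotypes overlap for slc12a3, clcnk and cdh17 but not for stc1l and kcnj1a.1.

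From the list for the distal pronephros and the corpuscle of Stannius, 17 genes were in the fit and 18 had a row. In AS against PS, 8 of the 17 rose and 5 fell in MUT, and 8 rose and 6 fell in SIB. Of all transcripts, 55.0% were called in MUT and 51.2% in SIB. The list's medians were 0.06 in MUT, or 0.75 without MUT_AS replicate 3, and 0.70 in SIB, beside 0.41 and 0.40 over all transcripts. With median scaling 7 rose and 6 fell in MUT, and 6 rose and 8 fell in SIB. Among those that rose was the regulator gene tbx2b, by 2.09 in MUT and 1.82 in SIB. Many of the regulators in the list are also active in neural and other tissue, and the row named slc12a1 carries a transcript that RefSeq now gives to frmd4a.

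Between genotypes none of the 17 was called in either region, with medians of 0.25 in AS and 0.12 in PS, beside 0.08 and 0.06 over all transcripts. Without MUT_AS replicate 3, which leaves replicate 1 alone, atp1a1a.4, a sodium pump gene that the whole pronephros uses, was higher in MUT in AS by 0.95. It had 37.6 RPKM in MUT_AS replicate 1 and 25.3 RPKM in replicate 3, against 18.6 and 19.5 RPKM in SIB_AS. The smallest p in PS was that of slc12a3, at 0.49 (SE 0.26, adjusted p = 1), whose libraries overlapped. Those of kcnj1a.1 did not, at 4.56 and 3.92 RPKM in MUT_PS and 3.31 and 3.57 RPKM in SIB_PS. A ratio of stc1l to slc12a3 within a library was formed after the values were seen. It was 1.58 and 2.03 in MUT_PS and 1.06 and 1.88 in SIB_PS, and the groups overlapped. No such ratio was formed with clcnk or kcnj1a.1. The ratio of mean RPKM of MUT_PS to SIB_PS was 1.42 for slc12a3, 1.09 for clcnk and 1.23 for kcnj1a.1, beside 1.84 for stc1l. The overlap is thus that of the transport gene with the highest ratio. The part of the number of distal tubule cells in the difference of stc1l was not tested.

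The second stanniocalcin gene, stc2a, showed no difference beyond the spread of its libraries. It had 5.73 and 7.74 RPKM in MUT_AS, against 5.55 and 7.37 RPKM in SIB_AS. In PS it had 6.67 and 5.41 RPKM in MUT_PS, against 5.40 and 5.66 RPKM in SIB_PS. The genotypes overlapped in each region, and the regions overlapped in each genotype.

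The difference of stc2a between genotypes was 0.05 in AS (95% interval -0.39 to 0.49, adjusted p = 0.94) and 0.10 in PS (95% interval -0.34 to 0.54, adjusted p = 1). Between regions it was 0.13 in MUT (95% interval -0.31 to 0.57) and 0.18 in SIB (95% interval -0.26 to 0.62). Without MUT_AS replicate 3 the genotype difference in AS was -0.14 and the regional difference in MUT was -0.06.

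The last stanniocalcin row, stc1, was the lowest of the 7. It had 0.114 RPKM and a listed 0 in MUT_AS, against 0.0835 and 0.275 RPKM in SIB_AS. It was listed at 0 in both MUT_PS libraries, against 0.0648 and 0.0457 RPKM in SIB_PS. As the SIB_PS values rested on 2 and 5 steps, these values do not separate the genotypes. The differences were -0.16 in AS and -0.08 in PS, with adjusted p = 0.544 and 1.

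Genes whose levels over the 8 libraries were most like those of each member were found by Pearson's r over all transcripts in the fit. For pth1b these were phlda2 (r = 0.975), lasp1 (0.974) and ugp2b (0.969). For stc1l they were egfl6 (r = 0.996), c1qtnf9 (0.995) and the slow myosin gene smyhc2 (0.995), and for stc2a they were tyr, the tyrosinase gene of pigment cells (r = 0.962), lpar1 (0.945) and surf4l (0.927). The libraries share groups and depth, so each r describes these 8 libraries only. For stc1l it mostly restates the step between AS and PS.

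In the pathway around these hormones, the list of calcium and vitamin D genes had 12 members in the fit of 17 with a row. None was called between genotypes in either region. The smallest p in AS was that of gcm2, the transcription factor gene that parathyroid tissue needs in mammals, which in fish marks the pharyngeal pouches and skin ionocytes. It had 2.41 and 2.43 RPKM in MUT_AS, against 1.004 and 1.30 RPKM in SIB_AS, a difference of 0.67 (SE 0.22, adjusted p = 0.333). In PS it had 1.33 and 1.88 RPKM in MUT_PS, against 0.861 and 1.66 RPKM in SIB_PS, a difference of 0.22 (adjusted p = 1). Both MUT_AS libraries stood above both SIB_AS libraries, as in 27.0% of the 10889 transcripts, and the value of MUT_AS replicate 3 came from 6 steps. Without that library, which leaves replicate 1 alone in MUT_AS, ramp2, a receptor partner gene, was lower in MUT in AS by 0.98. It had 6.38 RPKM in MUT_AS replicate 1 and 12.3 RPKM in replicate 3, against 13.8 and 13.5 RPKM in SIB_AS.

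Between regions 1 of the 12 rose in AS and 1 fell, in both genotypes. Of all transcripts, 55.0% were called in MUT and 51.2% in SIB. The phosphate transporter gene slc34a2b rose by 1.29 in MUT and 0.97 in SIB (adjusted p = 0.000331 and 0.00163). The row zgc:91818, which RefSeq now names ramp1, a partner of calcitonin family receptors, fell by 0.99 in MUT and 0.69 in SIB (adjusted p = 0.00157 and 0.0111). With median scaling 1 rose and 3 fell in MUT, and 1 rose and 2 fell in SIB. The median of the 12 was 0.08 in AS, or 0.15 without MUT_AS replicate 3, and -0.08 in PS for MUT against SIB.

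Mammalian stanniocalcins block PAPP-A, the protease that frees insulin-like growth factors from their binding proteins. Of 9 genes of that system in the fit (14 with a row), none was called between genotypes, and the medians were 0.01 in AS, or -0.05 without MUT_AS replicate 3, and -0.06 in PS. The smallest p was that of igfbp1a, a binding protein gene, at 0.81 in AS (adjusted p = 0.346) and 0.36 in PS (adjusted p = 1). In MUT_AS igfbp1a had 6.42 RPKM in replicate 1 and 13.7 RPKM in replicate 3, and without replicate 3 its AS difference was 0.32 (adjusted p = 0.328). Between regions 4 of the 9 rose and 1 fell in MUT, and 3 rose and 1 fell in SIB. Of all transcripts, 55.0% were called in MUT and 51.2% in SIB. The growth factor gene igf2b rose in AS by 0.85 in MUT and 0.79 in SIB (adjusted p = 0.00192 and 0.00342), and igfbp2a fell by 0.91 and 0.85 (adjusted p = 0.00321 in MUT and 0.00552 in SIB). With median scaling 1 rose and 2 fell in MUT, and 0 rose and 3 fell in SIB.

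Of 18 genes in the fit for the cyclic AMP and Gq pathways (23 with a row), none was called between genotypes, with medians of 0.12 in AS and 0.02 in PS. In AS against PS 8 of the 18 rose and 0 fell in each genotype. Over all 10889 transcripts, 4796 rose and 1189 fell in MUT, and 4531 rose and 1047 fell in SIB. The list's medians were 0.51 in MUT and 0.46 in SIB, beside 0.41 and 0.40 over all transcripts. With median scaling 5 rose and 3 fell in MUT, and 4 rose and 3 fell in SIB. The smallest p was that of creb1b, a transcription factor gene of the cyclic AMP response, at 1.69 in MUT and 1.52 in SIB. Of 16 cartilage and bone genes in the fit (24 with a row), none was called between genotypes, with medians of 0.16 in AS and 0.08 in PS. The smallest p in AS was that of zgc:194937, which RefSeq now names col9a1a, a cartilage collagen gene, at -1.47 (adjusted p = 0.257).

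**Figure D4:**
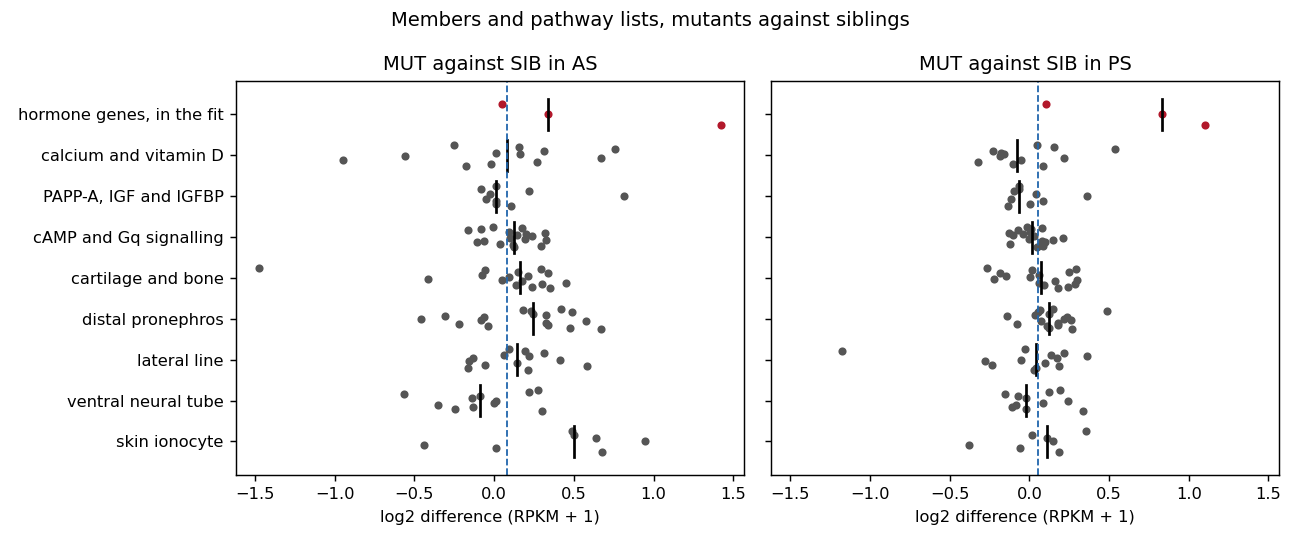
Differences between MUT and SIB on log2(RPKM + 1) (horizontal axis) in AS (left) and PS (right), for the 3 members in the fit (red, top) and for the genes in the fit of 8 lists (grey). Each point is a gene, black bars are list medians, and the dashed line is the median of all transcripts, 0.08 in AS and 0.06 in PS. The highest point of the plot in both regions is pth1b, at 1.42 and 1.105.

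Markers of the tissues known for pth1a and pth1b were not called between genotypes. Of 13 lateral line genes in the fit none was called, with medians of 0.14 in AS, or 0.25 without MUT_AS replicate 3, and 0.05 in PS. In PS s100t, a gene of hair cells, was lower in MUT by 1.17. This value uses no MUT_AS library, and with all libraries it was not called. Of 11 ventral neural tube genes none was called, with medians of -0.09 in AS, or 0.04 without MUT_AS replicate 3, and -0.02 in PS. The lateral line markers summed to 243 to 267 RPKM in MUT_AS and 213 to 242 RPKM in SIB_AS, and to 119 to 135 RPKM in MUT_PS and 120 to 134 RPKM in SIB_PS. In AS the largest part was cxcr7b, which RefSeq now names ackr3b, at 58.6 and 53.2 RPKM in MUT_AS and 54.1 and 47.1 RPKM in SIB_AS. Sums of this kind follow the genes with the highest levels and were not taken as a measure of the tissue. The ventral neural tube markers summed to 325 to 438 RPKM in MUT_AS and 377 to 489 RPKM in SIB_AS, and to 139 to 150 RPKM in MUT_PS and 132 to 158 RPKM in SIB_PS.

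With all libraries, no gene of the lists for pharyngeal pouches and skin ionocytes was called between genotypes in AS or in PS. The 9 pharyngeal pouch genes, all in the fit, summed to 152 to 175 RPKM in MUT_AS and 128 to 134 RPKM in SIB_AS, and to 75.2 to 80.7 RPKM in MUT_PS and 79.1 to 80.6 RPKM in SIB_PS. The smallest p in the pouch list was that of hoxa3a at 0.64 in AS (adjusted p = 0.275). A large part of the AS sums was this gene, at 84.95 and 72.64 RPKM in MUT_AS and 49.97 and 50.06 RPKM in SIB_AS. The gap between the pouch sums in AS was therefore not taken as a measure of pouch tissue. In AS 6 of the 9 pouch genes were higher in MUT and 3 were lower, with a median of 0.27, or 0.20 without MUT_AS replicate 3. The 7 skin ionocyte genes in the fit had a median of 0.50 in AS, or 0.33 without MUT_AS replicate 3, and 0.11 in PS. In AS 6 of the 7 were higher in MUT and 1, ca2, was lower. All 9 with a row summed to 123 to 176 RPKM in MUT_AS and 122 to 155 RPKM in SIB_AS, which overlap. A large part of these sums was ca2, at 36.0 and 66.9 RPKM in MUT_AS and 58.8 and 76.4 RPKM in SIB_AS. Without MUT_AS replicate 3, which leaves 1 MUT_AS library, the muscle myosin gene myhz1.2 was lower in MUT in AS by 1.46. The median of the 8 muscle markers was then -0.661. With the lower muscle marker sums in MUT_AS, these values lie beside the difference of pth1b in AS, and their part in it was not tested.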

How the data were processed

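The deposited table gives, per its file header, log2(RPKM + 1) for each RefSeq transcript and library. Per the design text, paired-end reads of stranded poly(A) libraries were aligned with RUM (version not given in the sources used here) to Zv9 (danRer7). The deposited table also holds a ratio per genotype pair, made by the authors and not used here. Of 14809 rows, 228 fill rows were dropped. For 13710 transcripts (94.0%) the accession was found in a RefSeq annotation of another build, used only for names, so no coordinates are given.

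Members and lists were chosen with earlier results of these data known. Transcripts averaging 1 RPKM or more were fitted with limma 3.58.1 (R 4.3.3, statmod 1.5.0, trend and robust options) with 1 mean per group, and an adjusted p under 0.05 over all of them was called. Reads per value were inferred from the steps of low values. The table holds no counts, so no counting intervals are given. Named were all members, the 3 transcripts most like each member, and foxc1a. Of the list genes, some of those called or with the smallest p were named. Alternatives were no filter, a pseudocount of 0.1, median scaling, group weights, a replicate block and leaving out each library.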

Additional observations from a re-analysis of the deposited data

How the results depend on the processing

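No member was called between MUT and SIB in AS or in PS, or for the interaction, and 1 of 3 (stc1l) was called between AS and PS in each genotype. Over all transcripts the shares called between regions were 55.0% in MUT and 51.2% in SIB. Without the filter, 4 of 7 were called for AS against PS in MUT, where 42.3% of all transcripts were called. With a weight per group 1 was called for MUT against SIB in PS (pth1b), where 17 of 10889 transcripts were called. Leaving out 1 library at a time, the count ran from 0 to 2 for MUT against SIB in AS, from 0 to 2 in PS, from 1 to 2 for AS against PS in MUT and from 0 to 2 for the average over regions. That average, added after the values were seen, had 1 call, 0 without the filter and 0 with median scaling. Each fit with 1 library left out had a group of 1 library, whose spread was taken from the other groups. The higher member counts came from leaving out a MUT_AS library. Calls over all transcripts rose in those fits too, and whether the higher counts were particular to the members was not tested. Some signs turned. With median scaling pth1b was -0.19 and stc2a -0.24 for AS against PS in SIB. In the same setting stc2a was -0.30 for AS against PS in MUT, and -0.03 for MUT against SIB in AS. Leaving out 1 library at a time, MUT against SIB ran from -0.16 to 0.83 for stc1l in AS, from -0.14 to 0.24 for stc2a in AS and from -0.02 to 0.23 for stc2a in PS. AS against PS in MUT ran from -0.06 to 0.32 for stc2a and from 0.23 to 0.86 for pth1b, which passed without MUT_AS replicate 1. The interaction ran from -0.0003 to 0.63 for pth1b, from -0.99 to 0.0014 for stc1l and from -0.24 to 0.13 for stc2a. With all libraries it was 0.32, -0.49 and -0.05, and the difference of stc1l in AS was 0.34. Without the filter, leaving out either MUT_AS library, added after the values were seen, gave -0.27 to 0.08 for pth1a in AS and -0.02 to 0.53 for the interaction of pthlha. The cause was not tested. The replicate block changed no call of a member. Under it 7 transcripts were called in AS, against 5, and deviations of same-numbered libraries correlated at -0.094 to 0.522, so the numbers were not taken to pair them. No member had several rows, so choosing the lowest-mean row gave no other value. Depth limits MUT_AS replicate 3, where 1 step was worth 0.342 to 1.7 RPKM for 6 members.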
